A study of Mus musculus with 8 samples.

Results

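The genes that carry a signal from opioid receptors into the cell were followed in mESCs (mouse embryonic stem cells) with and without morphine. They encode the G protein subunits, adenylyl cyclases, receptor kinases, arrestins and RGS proteins (regulators of G protein signalling), together with the PKA subunits, the CREB factors and the PDE4 phosphodiesterases of the cAMP branch. Members were the loci of the RNA-Seq count table whose most frequent gene name belongs to one of these families, with Gnas left out. This gave 127 of the 44396 loci in the table, which stand for 81 genes. The cells were the Oct4-GFP line PCEMM08, in which the Pou5f1 (Oct4) promoter drives GFP, grown without feeder cells on gelatine with LIF and inhibitors of MEK and GSK3. Control cells received the NaCl vehicle and treated cells received 10 µM morphine for 24 h, and each condition has 2 RNA-Seq libraries of poly(A) RNA and 2 H3K27me3 ChIP-Seq libraries. The study calls the ChIP-Seq duplicates biological replicates and the RNA-Seq libraries duplicate samples. For the latter no separate cultures are named, so the RNA p-values measure the spread between these libraries, which may be technical.

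The mu, delta and kappa opioid receptors couple mainly to the Gi and Go proteins. An activated receptor makes the Gα subunit exchange GDP for GTP and part from its Gβγ dimer. Gαi then inhibits several adenylyl cyclases, so less cAMP is made and PKA is less active, while Gβγ acts on ion channels and kinases. Receptor kinases and β-arrestins switch the receptor off, RGS proteins speed the return of Gα to its GDP form, and PDE4 enzymes break cAMP down. CREB1, CREM and ATF1 bind the cAMP response element (CRE) of target genes and are phosphorylated by PKA. H3K27me3, placed by PRC2 (Polycomb repressive complex 2), marks silent chromatin at CpG-rich promoters of stem cells.

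The 4 RNA-Seq libraries held 25081266 to 29531096 counted reads. Expression is given as CPM (counts per 1000000, on TMM-normalized library sizes), and levels of different genes are compared as CPM per kb of locus length. FDR is the adjusted p-value of edgeR's quasi-likelihood test over all 20350 loci that passed the count filter, and a locus was called at an FDR of 0.05. All 10 stem cell marker genes examined were detected, with summed levels of 5405 to 5499 CPM in the control and 5461 to 5599 CPM after morphine, and none of them was called. The fibroblast feeder list, the check for carried-over feeder cells, summed to 10.3 to 12.4 CPM over the 4 libraries. The opioid receptors themselves had few or no reads: Oprm1, the mu receptor, had 0 reads in all 4 libraries, which allows up to 0.12 CPM in the smallest of them (3 counts, counting error only), and the other receptors had between 2 and 29 reads per library.

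Of the 81 genes, 63 passed the count filter and were tested. The other 18 were too low to test, and 6 of these had no read in any library, namely the RGS genes Rgs1, Rgs13, Rgs18 and Rgs21, the calcium-stimulated cyclase Adcy8, and gustducin (Gnat3). One gene was called, Creb1, which fell, and none was called higher. That is 1.59% of the tested genes, against 1.52% of all tested loci (309 of 20350, with 0.614% called higher and 0.904% lower), so the share of called genes was at the background. In a fit with 1 row per gene symbol throughout, 1.87% were called (334 of 17845), and Creb1 was again the only member. At an unadjusted p under 0.05, 4 genes were higher and 6 were lower after morphine, or 6.35% and 9.52% of the tested genes, against 9.7% and 10.8% of all loci. In 21 genes the morphine libraries were both above the control libraries and in 17 both were below (33.3% and 27%), against 26% and 26.8% of all loci. The log2 fold change was above 0 in 35 genes and below 0 in 28, with a median of 0.03 against 0.0013 over all loci. The 95% interval of the fold change lay within 0.5 on the log2 scale on either side of 0 in 45 of the 63 genes, so for most of the pathway a larger change is outside the interval, while the 18 others include low genes whose intervals are wide.

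**Figure D1:**
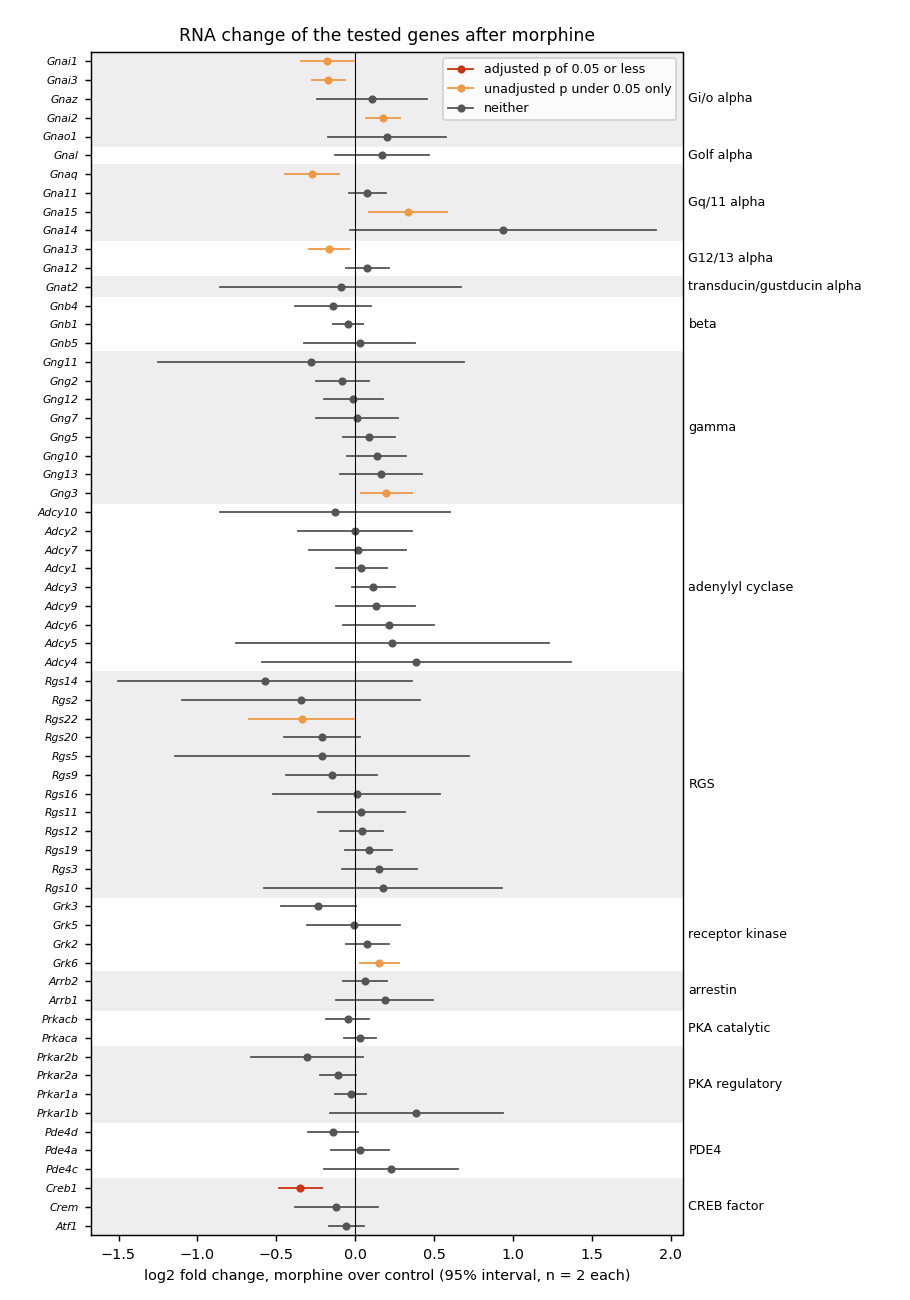
Log2 fold change of morphine over control (x axis) with its 95% interval for the 63 tested genes, grouped by role (n = 2 libraries per condition, edgeR quasi-likelihood fit). Creb1 is the only gene with an FDR of 0.05 or less, 9 more have an unadjusted p under 0.05, and the widest intervals belong to genes with few reads such as Gna14.

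Creb1, the cAMP-responsive transcription factor, was the one member called at the threshold. It had 1194 and 1237 reads in the control and 834 and 961 after morphine, or 43.5 and 42.0 CPM against 33.0 and 34.1 CPM. The groups did not overlap, and the mean went from 42.7 ± 1.02 to 33.6 ± 0.824 CPM (SD, n = 2), a log2 fold change of -0.35 (SE 0.06, FDR = 0.0275, edgeR). Without morphine replicate 1 the log2 fold change was close to this, at -0.32, but the FDR was 0.266, in a fit that called 13 loci in all. The call was also lost when trends with locus length and GC content were removed from each library (log2 fold change -0.16, FDR = 0.182), and the Creb1 transcript has a GC content of 39.6%. The related factors were not called. Atf1, the CREB factor with the most RNA per kb, had 98.3 and 100.3 CPM in the control and 94.6 and 96.4 CPM after morphine (log2 fold change -0.06, 95% interval -0.17 to 0.06). Per kb, Atf1 stood at 41.8 CPM against 3.85 to 5.08 CPM for Creb1 in the single libraries.

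The Creb1 locus lies at chr1:64532804-64604548 of mm10, on the plus strand. Its promoter is shown because Creb1 is the called member and because its H3K27me3 state is described below. The 300 bases around the start (chr1:64532554-64532853, plus strand, RefSeq, GRCm38.p6) hold 31 CpG dinucleotides, which are in capitals, and neither the full CRE TGACGTCA nor the shorter site TGACG on either strand.
Creb1 promoter: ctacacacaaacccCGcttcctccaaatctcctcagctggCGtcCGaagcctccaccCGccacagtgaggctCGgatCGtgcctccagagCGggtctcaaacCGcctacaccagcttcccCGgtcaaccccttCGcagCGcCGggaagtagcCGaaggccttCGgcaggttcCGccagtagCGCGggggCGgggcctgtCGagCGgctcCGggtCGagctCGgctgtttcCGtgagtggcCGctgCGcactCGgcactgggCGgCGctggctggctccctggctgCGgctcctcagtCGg

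The Gi/o alpha subunits, the direct partners of the opioid receptors, were present as Gnai2 and Gnai3 above all. Gnai2 was the most abundant member per kb, at 123.7 CPM per kb averaged over the 4 libraries, and its levels were 246 and 260 CPM in the control and 294 and 277 CPM after morphine. The morphine values did not overlap the control values (252.7 ± 10.1 against 285.7 ± 12.1 CPM, log2 fold change 0.18, SE 0.05), but the FDR of 0.0852 missed the threshold. Gnai3 lay the other way. It had 150 and 149 CPM in the control and 130 and 136 CPM after morphine, with a log2 fold change of -0.17 (SE 0.05, FDR = 0.0877). Gnai1 also had both morphine libraries below the controls, with 20.6 and 20.8 against 17.6 and 19.0 CPM (log2 fold change -0.18, FDR = 0.221). DESeq2 called Gnai2 (FDR = 0.0298), and Gnai2 and Gnai3 were both called when every locus with a read was tested or when only loci with an annotated transcript were. After removal of length and GC trends they stood at 0.01 (FDR = 0.930) and -0.06 (FDR = 0.491). Over the fits without 1 library the log2 fold change ran from 0.13 to 0.22 for Gnai2 and from -0.20 to -0.14 for Gnai3.

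Gnao1 and Gnaz, the Go and Gz subunits known best from neurons, were low. Gnao1 had 3.17 and 2.75 CPM in the control and 3.24 and 3.55 CPM after morphine (log2 fold change 0.20, 95% interval -0.17 to 0.58). Gnaz had 3.28 and 3.30 against 3.52 and 3.55 CPM, with an interval of -0.24 to 0.46. Both genes had their morphine libraries above their controls and neither was called. Summed per kb, Gnai2 made up 67.6% and 68.9% of the Gi/o alpha RNA without morphine and 74.1% and 72.1% with it. The share of Gnai3 was 27.5% and 26.3% without morphine and 21.8% and 23.5% with it. These shares rest on the same counts as the fold changes above and were not tested.

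Among the alpha subunits that couple to other effectors, Gq/11, which activates phospholipase C, was carried mostly by Gna11. Gna11 had 81.7 and 84.7 CPM in the control and 90.0 and 85.6 CPM after morphine (log2 fold change 0.08, 95% interval -0.04 to 0.20). Its close relative Gnaq had 28.5 and 25.8 against 21.5 and 23.3 CPM, a log2 fold change of -0.27 (SE 0.08) with an FDR of 0.0876. In both genes the groups did not overlap, in opposite directions, and neither passed the threshold. Gna15, a promiscuous subunit of the same class, had 6.73 and 7.71 CPM in the control and 8.86 and 9.34 CPM after morphine (log2 fold change 0.33, FDR = 0.133). Gna14 had the largest fitted log2 fold change of the tested members, 0.93, on 10 and 6 control reads and 13 and 16 morphine reads. Its 95% interval ran from -0.03 to 1.90 and its FDR was 0.256.

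Of the G12/13 subunits, Gna13 was the more abundant per kb. It had 170.6 and 155.6 CPM in the control and 139.5 and 151.3 CPM after morphine (log2 fold change -0.17, FDR = 0.147), and 302 bases of its locus overlap an antisense gene, so some reads may be shared. Gnal, the Golf subunit that stimulates adenylyl cyclase in the olfactory epithelium and striatum, had 6.26 and 5.50 against 5.97 and 7.21 CPM, with overlapping groups. Gnat2, the cone transducin, was at the edge of detection with 19 and 37 reads in the control and 28 and 21 after morphine.

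Gnb1 and Gng5 had the most RNA per kb of the beta and gamma members (99.8 and 41.6 CPM per kb). Gnb1 was second to Gnai2 among all members, and it had 325.9 and 317.2 CPM in the control and 312.8 and 309.6 CPM after morphine. Its log2 fold change of -0.05 had a 95% interval of -0.14 to 0.05. Gng5 had 22.3 and 20.9 against 23.6 and 22.2 CPM, and Gng2, a common partner of Gnb1, had 31.8 and 28.3 against 29.6 and 27.3 CPM. The groups overlapped in both gamma genes and neither was called. Gng3 had both morphine libraries above its controls (23.2 and 21.3 against 25.4 and 25.6 CPM, FDR = 0.160), but 398 bases of its locus overlap Bscl2 on the other strand. Gng11 was near the filter, with 11 reads in each control library and 7 and 10 after morphine. Gnb2 is not among the members because its reads were assembled into 1 locus with Epo, and that locus had 157.1 and 168.4 CPM in the control and 183.7 and 176.0 CPM after morphine (log2 fold change 0.14, FDR = 0.151).

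Of the adenylyl cyclases, the enzymes that make cAMP and of which Gαi inhibits several isoforms, Adcy3 had the most RNA per kb (6.88 CPM per kb), and the others were below 2 CPM per kb in every library. Adcy3 had 33.5 and 34.3 CPM in the control and 36.6 and 36.8 CPM after morphine, with a log2 fold change of 0.11 (95% interval -0.02 to 0.25), although its locus overlaps Cenpo over 8360 bases on the other strand. Adcy1, a calcium-stimulated cyclase that Gαi inhibits, had 19.6 and 20.4 against 20.4 and 20.6 CPM (log2 fold change 0.04, 95% interval -0.12 to 0.20). Adcy6 had 5.93 and 5.33 against 6.01 and 7.0 CPM (log2 fold change 0.21, FDR = 0.401). Adcy8, also stimulated by calcium, was at 0 reads. Of the 9 tested cyclases, 7 had a log2 fold change above 0 and 2 below, and none was called.

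RGS genes were the largest group, with 21 genes of which 12 were tested, 6 on either side of 0. Rgs19, which acts on Gαi and Gαo, had the most RNA per kb at 11.2 CPM per kb, and it had 25.6 and 26.6 CPM in the control and 28.0 and 27.5 CPM after morphine (log2 fold change 0.09, FDR = 0.514). Rgs4 and Rgs9 are known from opioid responses in the brain. Rgs4 had 1 read in the 4 libraries together, while Rgs9 had 7.43 and 6.15 CPM in the control and 5.85 and 6.36 CPM after morphine (log2 fold change -0.15, 95% interval -0.44 to 0.14). Of the 12 tested, 3 had both morphine libraries above both controls (Rgs3, Rgs12 and Rgs19) and 4 had them below (Rgs2, Rgs14, Rgs20 and Rgs22), against 26% and 26.8% of all loci. Rgs22 had 132 reads in each control library and 100 and 96 after morphine (log2 fold change -0.34, FDR = 0.239). Rgs14 had 14 and 13 against 7 and 10 reads (log2 fold change -0.57, 95% interval -1.50 to 0.36), and Rgs2 had 17 and 25 against 14 and 17 reads (log2 fold change -0.34, FDR = 0.620).

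Receptor kinases and arrestins were led by Grk6, Grk2 and Arrb2. Grk6 had 109.9 and 119.0 CPM in the control and 130.6 and 124.0 CPM after morphine (log2 fold change 0.15, SE 0.06, FDR = 0.154). Grk2, a kinase that phosphorylates activated opioid receptors, had 75.1 and 81.2 against 85.8 and 79.1 CPM, with overlapping groups and a 95% interval of -0.06 to 0.21. Arrb2, the β-arrestin most studied in morphine tolerance, had 36.6 and 38.1 CPM in the control and 40.3 and 37.9 CPM after morphine (log2 fold change 0.06, 95% interval -0.08 to 0.20). Arrb1 was lower by more than an order of magnitude per kb, at 0.659 against 19.2 CPM per kb. It had 4.44 and 4.31 against 5.26 and 4.72 CPM (log2 fold change 0.19, FDR = 0.490). Neither arrestin passed the threshold, and the interval of both lies within 0.5 on the log2 scale.

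PKA and PDE4 genes kept narrow intervals where they were abundant. Prkar1a, a regulatory subunit that holds PKA inactive without cAMP, had 202.8 and 201.1 CPM in the control and 198.2 and 197.8 CPM after morphine (log2 fold change -0.03, 95% interval -0.13 to 0.07). The locus of the catalytic subunit Prkaca had 198.3 and 206.5 against 207.0 and 206.4 CPM, but it was assembled with Asf1b, a histone chaperone gene, so its level cannot be ascribed to Prkaca alone. The minor regulatory subunits lay in opposite directions without passing the test. Prkar1b had 31 and 30 reads in the control and 37 and 38 after morphine (log2 fold change 0.39, FDR = 0.416), and Prkar2b had 110 and 113 against 85 and 84 reads (log2 fold change -0.31, FDR = 0.313). Pde4d, the most abundant PDE4 gene, had 25.2 and 23.5 against 22.5 and 21.8 CPM (log2 fold change -0.14, FDR = 0.312), and Pde4c had 2.07 and 2.48 against 2.49 and 2.84 CPM (log2 fold change 0.23, FDR = 0.551).

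**Figure D2:**
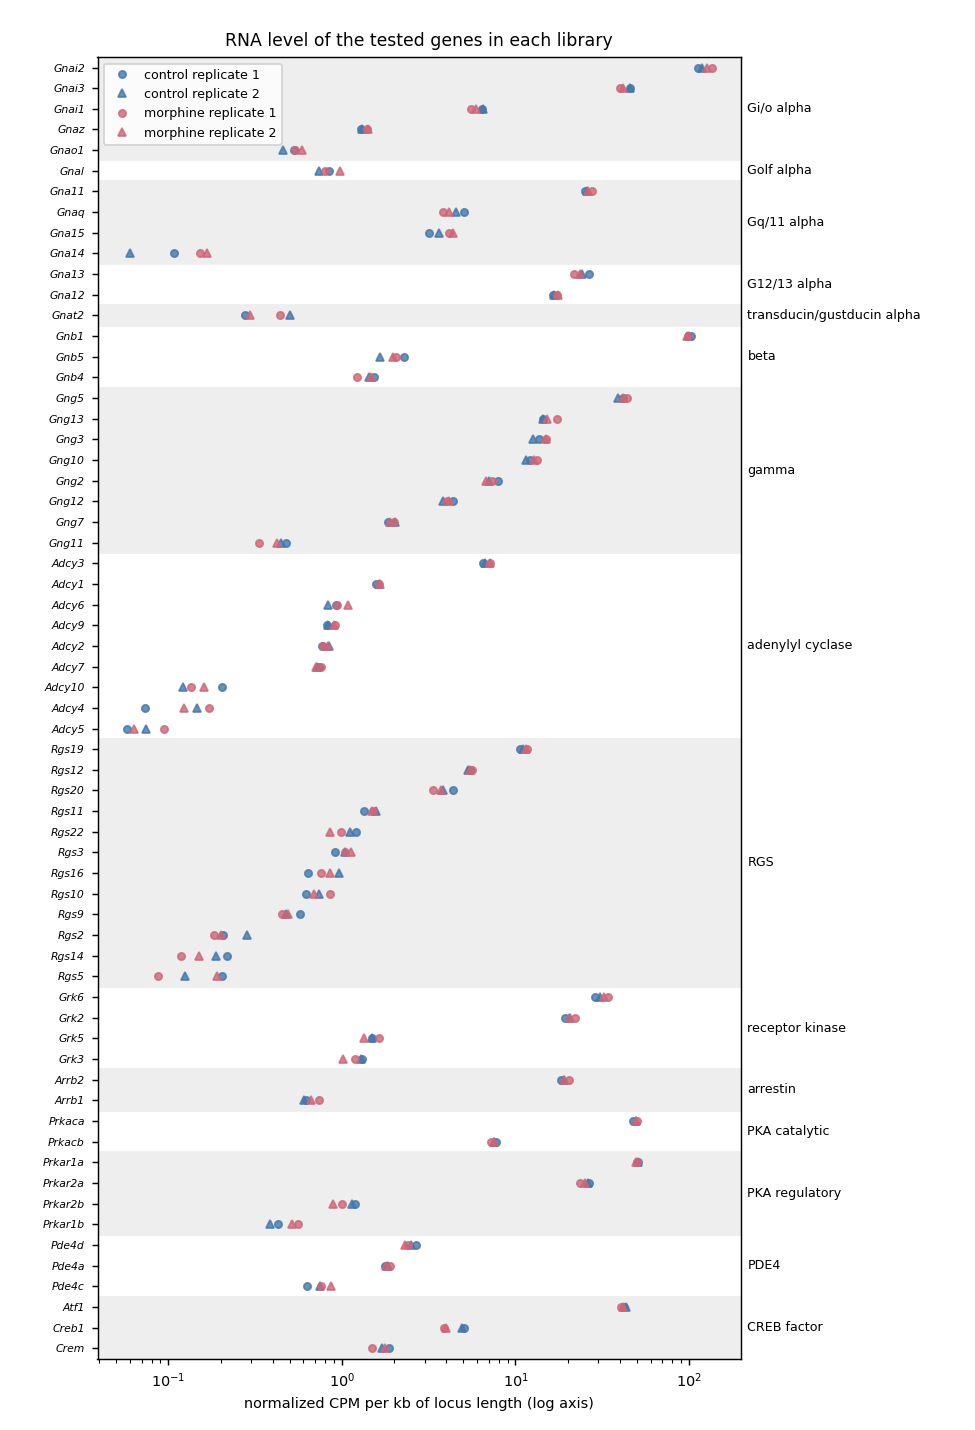
RNA level of the 63 tested genes in each library as normalized CPM per kb of locus length (x axis, log scale), grouped by role, with control in blue and morphine in red. Levels span from under 0.2 to above 100 CPM per kb, with Gnai2, Gnb1 and Prkar1a at the top beside the locus of Prkaca, which was assembled with Asf1b, and within most genes the 4 libraries lie close together.

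Related subunits were compared as ratios within each library, which do not depend on how the libraries were scaled. The pairs were chosen after their values had been seen and the ratios were not tested (the smallest two-sided exact p for 2 against 2 libraries is 0.33). The Gnai2 to Gnai3 ratio per kb was 2.46 and 2.61 without morphine and 3.39 and 3.07 with it, and that of Gnai2 to Gnai1 was 17.5 and 18.3 against 24.5 and 21.4. The Gna11 to Gnaq ratio was 4.95 and 5.68 against 7.23 and 6.34. Gna12 to Gna13 gave 0.619 and 0.692 against 0.798 and 0.753, and Grk2 to Grk3, which are also close relatives, gave 14.8 and 16.2 against 18.4 and 19.9. In each of these pairs both morphine ratios lay above both control ratios. In each, too, the first gene has the higher GC content: 56.7% for Gnai2 against 41.7% for Gnai3 and 42.6% for Gnai1, 57.2% for Gna11 and 46.9% for Gnaq, 58.2% for Gna12 and 46.4% for Gna13, and 57.8% for Grk2 and 49.8% for Grk3. In the pair of Prkar1a and Prkar2a the first gene has the lower GC content, 45.7% against 48.3%. Its ratios were 1.93 and 1.94 without morphine and 2.11 and 1.99 with it, so both morphine ratios lay above both controls there too.

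**Figure D3:**
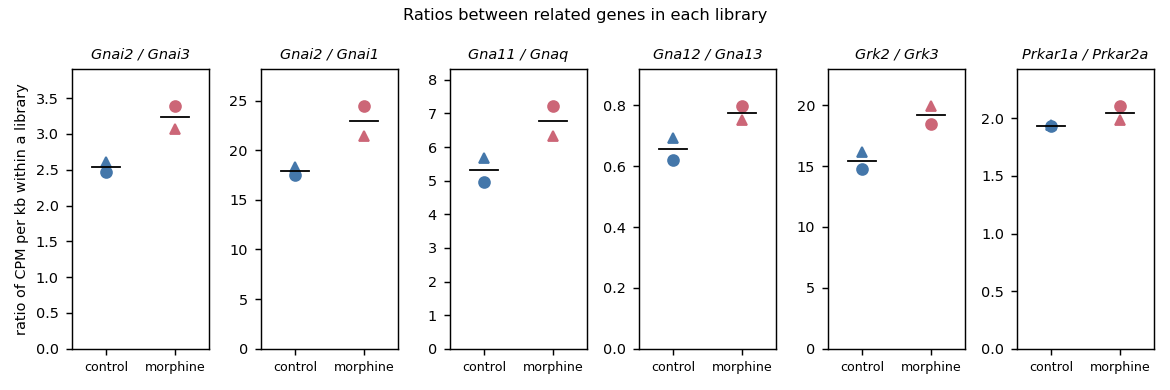
Ratio of CPM per kb between related genes in each library (y axis from 0), with control in blue, morphine in red, circles for replicate 1, triangles for replicate 2 and a bar at the mean of 2 libraries. Both morphine ratios lie above both control ratios in all 6 pairs, which were chosen after their values had been seen, and the Prkar1a to Prkar2a pair differs least.

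Over the members as a whole, the fold change followed the GC content of the transcript. Spearman's rank correlation between the log2 fold change and GC content was 0.640 over the 63 tested genes, against 0.526 over the 15957 tested loci with an annotated transcript. Genes measured in the same libraries are not independent, so this is a description. Below the median GC content of all tested loci, 25 of 29 members had a log2 fold change below 0, and at or above it 31 of 34 lay above 0. The same split put 70.7% of all loci below 0 on the low side and 26.7% on the high side. After trends with length and GC content were removed from each library, this correlation was 0.151 over the members and -0.011 over all loci. The log2 fold changes were then -0.08 for Gna11, -0.11 for Gna12 and -0.08 for Grk2, which changed sign, and no member was called, against 1.67% of all loci in that fit. The trends were fitted over these same loci, so the drop of the correlation is built into the removal. Any change after morphine that goes with GC content would be removed with them. Whether GC content plays a part in the differences between the libraries was not tested.

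**Figure D4:**
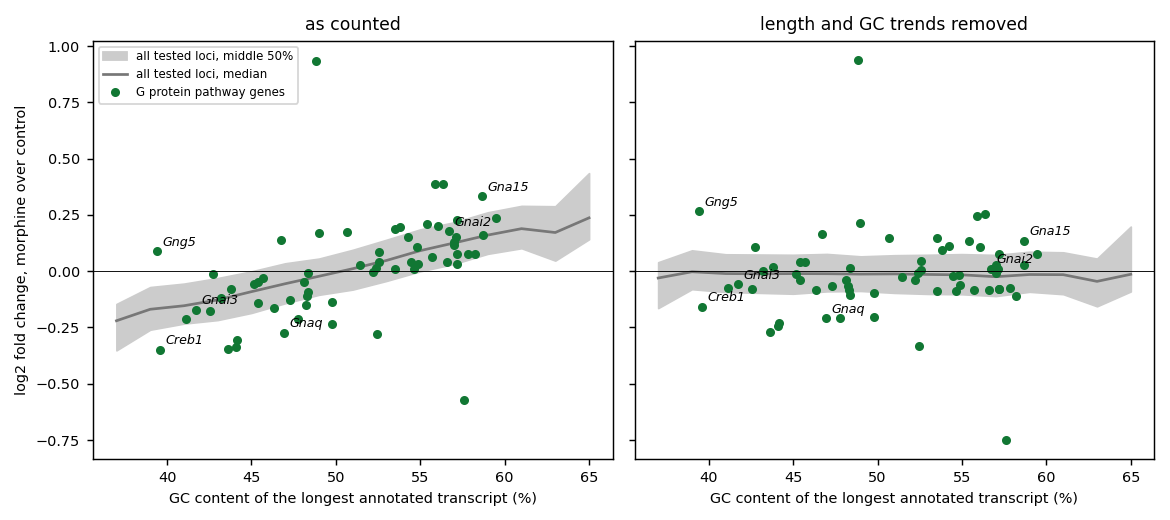
Log2 fold change of morphine over control (y axis) against the GC content of the longest annotated transcript (x axis) for the 63 tested genes (green), with the median (line) and middle 50% (band) of all tested loci in bins of GC content. The members lie along the rising trend of all loci as counted (left, rank correlation of 0.640 over the members). The trend was fitted over these same loci, so it is flat by construction after its removal (right, rank correlation of 0.151 over the members).

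H3K27me3 was then read at the promoters, taken as 1 kb on either side of each annotated start. The peak lists differ in size, with 10305 and 13778 peaks in control cells and 8681 and 12282 in treated cells. Promoter peaks were found at 30 and 28 of the 81 genes in control cells and at 29 and 32 in treated cells. These are 37.0%, 34.6%, 35.8% and 39.5% of the genes, against 16.4%, 16.9%, 16.7% and 17.4% of all protein-coding genes and 9.17%, 9.83%, 9.14% and 9.97% of all annotated genes. The number of members with a peak did not separate the conditions (29 ± 1.41 against 30.5 ± 2.12, SD, n = 2, two-sided exact permutation p = 0.667, where the smallest possible is 0.33). Both control libraries had a peak at 24 genes (29.6%, against 14% of protein-coding and 7.73% of all genes), and both treated libraries at 29 (35.8%, against 14.1% and 7.64%). All 4 libraries had one at 22 genes, or 27.2% against 11.7% of protein-coding and 6.23% of all genes, and at least 1 library at 36, or 44.4% against 22.9% and 13.4%. In each library the share of members was above that of genes at large, a difference that was not tested since the members were chosen with results known. The median number of annotated starts was 2 both per member and per protein-coding gene.

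The genes with a peak in all 4 libraries came from most roles. Of the 21 RGS genes, 7 were among them: Rgs4, Rgs6, Rgs8, Rgs11, Rgs16, Rgs19 and Rgs22. Of the 4 PKA regulatory subunits, 3 were (Prkar1b, Prkar2a and Prkar2b). The receptor kinases Grk3 and Grk5, the cyclases Adcy3 and Adcy9, the phosphodiesterases Pde4a and Pde4d, the Gβγ genes Gnb4, Gng4 and Gng8, and the alpha subunits Gnal, Gnaz and Gna14 made up the rest. No CREB factor, PKA catalytic subunit or G12/13 subunit had a promoter peak in any library. In the called gene Creb1, and in Gnai3, Gnaq and Gna13, no library had one. Gnai2 had none within 1 kb, and within 3 kb it had one in all 4 libraries.

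Peaks in at least 1 library were found at 44.4% both of the tested members and of those under the count filter, against 28.6% and 15.9% of the protein-coding genes in the same classes. Among the 63 tested members, 17 had a peak in all 4 libraries (27%), against 15.4% of the protein-coding genes past the filter. The median level of these 17 was 1.35 CPM per kb against 4.40 CPM per kb for tested members without a peak in any library, and the same medians over protein-coding genes were 2.31 and 8.86 CPM per kb. Prkar2a combined peaks with a high level, with 106.8 and 105.4 CPM in the control and 95.5 and 101.1 CPM after morphine beside peak scores of 246.7, 238.2, 231.6 and 227.6 in the 4 ChIP-Seq libraries. The score, the log10 of a peak's p-value times -10, serves only to rank peaks within a library. Among the 18 members under the count filter, 5 had a peak in all 4 libraries (27.8%), against 6.84% of the protein-coding genes under the filter. Rgs4 is one of these, with 1 read in all and a peak over its start in every library.

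**Figure D5:**
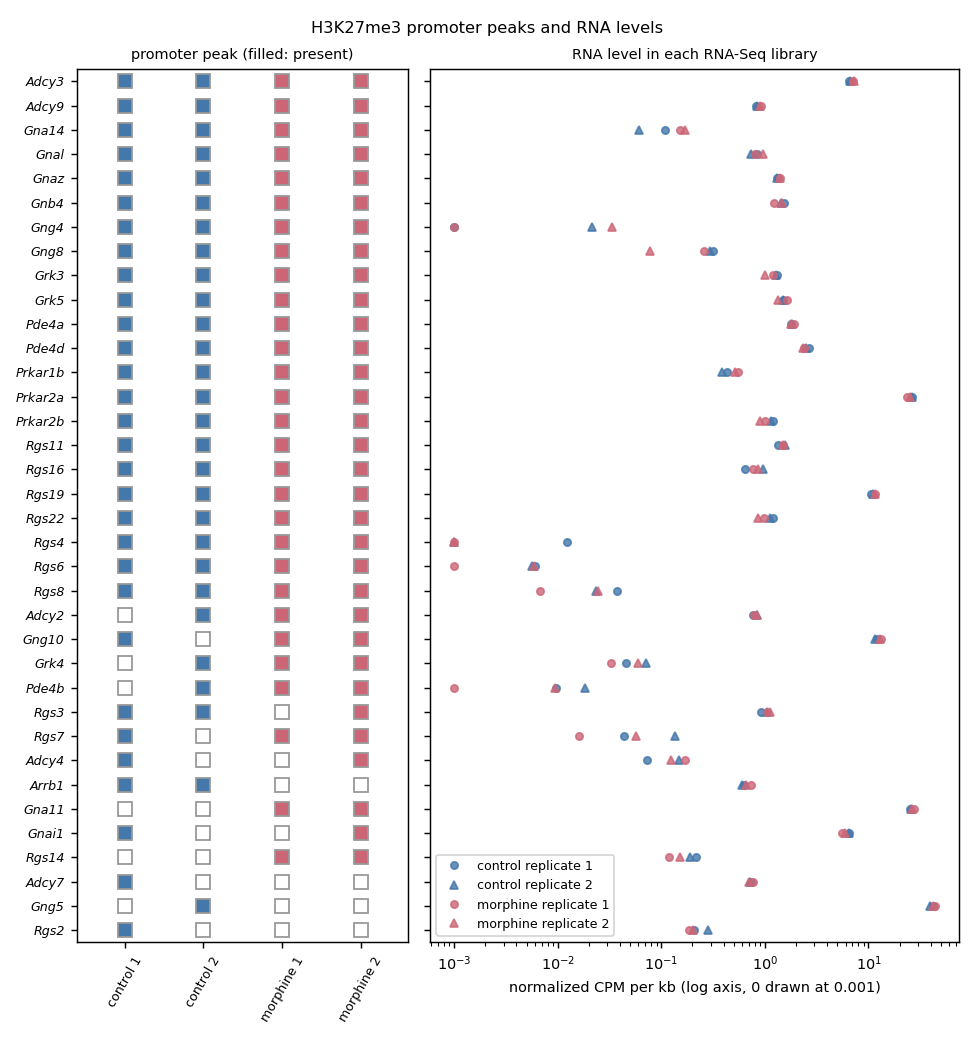
H3K27me3 promoter peaks of the 36 members with a peak in at least 1 library (left, a filled square is a peak in that ChIP-Seq library) beside their RNA level in each RNA-Seq library (right, CPM per kb on a log axis, with 0 drawn at 0.001). Of these genes, 22 have a peak in all 4 libraries, Gna11 and Rgs14 only in both morphine libraries, and Arrb1 only in both control libraries.

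Peaks set the conditions apart at 3 promoters. Gna11 and Rgs14 carried one after morphine, in each duplicate, and none in the control, which is 2 of 81 members (2.47%) against 1% of protein-coding genes and 0.55% of all genes. The Gna11 peaks lay at chr10:81543778-81545261 (score 94.3) and chr10:81543362-81545189 (score 69.2), and the second of them ends 1 bp from the annotated start. The Rgs14 peaks, at chr13:55370032-55374398 (score 60.02) and chr13:55370335-55376471 (score 68.8), began 300 and 603 bp inside the gene. Arrb1 had peaks in both control libraries alone (1.23% of members against 0.588% of protein-coding genes), at chr7:99535129-99537459 (score 86.2) and chr7:99535368-99537522 (score 122.1), both over the start. The peak caller kept nothing below a score of 50, and all but the second Arrb1 peak lie under 100, so these are among the weaker calls. The median score over the members' peaks was 103 and 135 without morphine and 108 and 122 with it. With 2 libraries against 2, presence and absence at a single promoter were not tested, since an exact test could not go below 0.33.

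The RNA of these 3 genes did not pass the test in either direction. The values given above put Gna11 at a log2 fold change of 0.08 with peaks after morphine alone, Rgs14 at -0.57 with the same pattern of peaks, and Arrb1 at 0.19 with peaks in the control alone. Their FDRs were 0.459, 0.482 and 0.490 in that order.

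The promoters of Gna11 and Rgs4 are printed for comparison with that of Creb1, since the first had peaks in the morphine libraries alone and the second carried a peak in every library. CpG dinucleotides are in capitals, and there are 48 in the Gna11 window (chr10:81545113-81545412, minus strand) and 13 in the Rgs4 window (chr1:169747593-169747892, minus strand), both from RefSeq on GRCm38.p6. Neither holds the full CRE, and the shorter site TGACG occurs 2 times in the Rgs4 window and 0 times in the Gna11 window.
Gna11 promoter: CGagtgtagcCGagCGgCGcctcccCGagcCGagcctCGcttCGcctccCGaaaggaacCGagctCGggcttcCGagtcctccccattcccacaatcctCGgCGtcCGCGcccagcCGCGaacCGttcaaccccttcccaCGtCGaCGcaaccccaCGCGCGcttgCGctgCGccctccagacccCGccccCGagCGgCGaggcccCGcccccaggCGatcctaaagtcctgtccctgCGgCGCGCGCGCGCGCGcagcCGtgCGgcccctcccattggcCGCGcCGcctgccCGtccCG
Rgs4 promoter: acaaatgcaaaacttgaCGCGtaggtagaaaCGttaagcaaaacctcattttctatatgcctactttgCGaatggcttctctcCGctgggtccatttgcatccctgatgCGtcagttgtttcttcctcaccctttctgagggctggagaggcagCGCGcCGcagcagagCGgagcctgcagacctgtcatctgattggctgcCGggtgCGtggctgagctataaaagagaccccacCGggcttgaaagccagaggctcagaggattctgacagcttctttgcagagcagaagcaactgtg

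RefSeq windows of this kind were at hand for 61 of the 81 genes, 94 windows in all. Their median CpG count was 19, against 7 over all 32851 promoter windows, and their median GC content 60.5% against 52.7%. The full CRE TGACGTCA, searched on both strands, was in 2 windows (2.13%, against 1.79% of all windows), and the shorter site TGACG, which the full site contains, was in 22 (23.4% against 20.8%). Both windows with the full CRE belong to Prkar1a and overlap at the same site. This stretch is shown because it is the one full CRE in the windows searched, with the CRE in capitals, at chr11:109650889-109650918 on the plus strand.
Prkar1a CRE: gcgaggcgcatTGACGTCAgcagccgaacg

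Other genes of the pathway were taken from a list of receptors, channels, G protein modulators, cAMP effectors, PKA anchors and inhibitors, CREB coactivators, CREB targets and further phosphodiesterases. Of 49 such genes with a row in the table, 39 were tested, and 2 were called, both lower, against 0.904% of all loci called lower. Akap9, which anchors PKA at the centrosome and Golgi, had 60.2 and 54.5 CPM in the control and 41.0 and 46.6 CPM after morphine (log2 fold change -0.39, SE 0.07, FDR = 0.0358). Crebbp, the acetyltransferase that CREB recruits, had 68.9 and 59.5 against 49.7 and 50.9 CPM (log2 fold change -0.35, SE 0.07, FDR = 0.0419). In both genes the groups did not overlap, and both calls were lost without morphine replicate 1 (log2 fold changes of -0.30 and -0.33, FDR = 0.387 for each). The Crebbp call was also lost without control replicate 1 (log2 fold change -0.25, FDR = 0.113) and without morphine replicate 2 (-0.37, FDR = 0.0644). After removal of length and GC trends both genes were still called, Akap9 at -0.24 (FDR = 0.0292) and Crebbp at -0.35 (FDR = 0.00572). Pkia, the PKA inhibitor, had the largest difference of the 5 genes with the smallest p-values, with 104 and 95 reads in the control and 52 and 64 after morphine (log2 fold change -0.69, FDR = 0.0755). The CREB targets did not lie on one side: Junb (log2 fold change 0.28, FDR = 0.0679) had its morphine libraries above its controls, and Fos, with 94 and 98 reads in the control and 60 in each morphine library (log2 fold change -0.59, FDR = 0.0999), had them below. The cAMP-activated exchange factor Rapgef3 had a log2 fold change of 0.29 (FDR = 0.0715). None of these passed the threshold. Over the alternatives the FDR ran from 0.0102 to 0.846 for Junb, 0.0132 to 0.472 for Pkia, 0.000189 to 0.472 for Rapgef3 and 0.0475 to 0.451 for Fos, so each was called under at least 1 of them. The median over the 39 tested genes was -0.0054.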

How the data were processed

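RNA-Seq and H3K27me3 ChIP-Seq libraries of control and morphine-treated mESCs were used, 2 of each kind per condition, grouped by the sample labels. The RNA values are read counts per locus as the authors deposited them, made with HISAT2 2.1.0, StringTie 1.3.6 and featureCounts 1.6.4 on mm10. Strand and multi-mapping settings of the counting are not given in the sources used here. For ChIP-Seq, the authors aligned reads with Bowtie2 2.3.5.1 and called peaks with MACS per library, and the deposited peak score is the log10 p-value times -10. The deposited peak lists give no reads per peak, so only presence and position were compared. Labels and paper name different antibody suppliers.

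After filterByExpr and TMM normalization, loci were tested with the quasi-likelihood F-test of edgeR 4.0.16 in R 4.3.3, with Benjamini-Hochberg adjustment over all tested loci. Rows of 1 gene share reads, so each gene is given by its row with the most reads, a choice made after the data had been seen, and 23 of the 81 genes have more than 1 row. Promoters were 1 kb on either side of 77258 GENCODE vM21 starts. GC content is that of the longest annotated transcript. Scripts were tested on simulated data.

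Named genes were the called member, the up to 6 largest rises and 6 largest falls without overlap between groups, the member with the most RNA per kb in each role, promoters with peaks in 1 condition only, and a core of opioid signalling. Gnaq, Gng3, Rgs3, Rgs12, Rgs20, Fos and the genes named only in ratios or by their peaks were added after their values were seen. The members and lists were chosen with earlier results of these data known. Alternatives were RLE and total count scaling, no count filter, a replicate term, removal of length and GC trends, edgeR's exact test, DESeq2 1.42.0, an FDR of 0.01, a promoter of 3 kb, a peak score of 100, equal peak numbers, peak midpoints and each library left out in turn. Restriction to annotated loci or to 1 row per gene was added after the data had been seen.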

Additional observations from a re-analysis of the deposited data

How the results depend on the processing

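The number of called member loci, 1 as reported, was 5 of 114 without the count filter (4.39%, against 5.44% of all loci; Creb1, Gna13, Gnai2, Gnai3 and Gnaq), 4 of 78 with annotated loci only (5.13% against 6.3%), 2 of 78 with DESeq2 (2.56% against 3.2%), 2 with the replicate number as a block (2.56% against 5.54%, Creb1 and Gnaq), 0 after removal of length and GC trends (1.67% of all loci called) and 0 at an FDR of 0.01 (0.118%). Leaving out 1 library gave 0 to 6 called loci, 6 without control replicate 2 and 0 without morphine replicate 1, where 1619 and 13 of all loci were called. The same-numbered libraries shared only a number (correlation of their deviations 0.031 over 2 pairs), and the block gave 1128 calls over all loci. The median log2 fold change of the members, 0.02 over loci, was 0.0416 with total counts, -0.0168 without the filter, -0.0241 after trend removal and 0.0079 to 0.0644 over the fits without 1 library. Trend removal reversed Adcy3 (-0.0076), Arrb2 (-0.0817), Gna11 (-0.0791), Gna12 (-0.112), Gnaz (-0.0182), Gng2 (0.0193), Grk2 (-0.0758), Prkaca (-0.0615) and Prkar1a (0.0397), and leaving out 1 library reversed Gnat2 (-0.45 to 0.41), Gng2 (-0.16 to 0.00053) and Prkaca (-0.0026 to 0.0664). Leaving out 1 library also moved the uncalled genes Rgs2 between -0.55 and -0.087, Adcy6 between 0.0949 and 0.31 and Gna14 between 0.58 and 1.39. Others that moved widely include Rgs9 (-0.27 to -0.0126), Pde4c (0.10 to 0.37), Gnao1 (0.11 to 0.30), Adcy1 (0.0070 to 0.0752) and Arrb2 (0.0196 to 0.111). None of the 47 genes recomputed changed sign under RLE or total count scaling. Members with a peak in both control libraries numbered 15 and in both morphine libraries 14 at a score of at least 100 (18.5% and 17.3%, against 8.15% and 7.57% of protein-coding genes). They numbered 8 and 15 by the peak midpoint (9.88% and 18.5%, against 4.46% and 5.96%). With equal peak numbers they were 21 and 25 (25.9% and 30.9%, against 12.1% and 13.1%). Promoters with peaks after morphine only numbered 1 at a score of at least 100 (1.23%, against 0.61% of protein-coding genes). By the peak midpoint there was 1 (1.23% against 1.29%), and with equal peak numbers 3 (3.7% against 1.06%). They numbered 2 to 5 when 1 library was left out (5 without control replicate 2), and those in control only 1 to 3. At a score of at least 100, Gna11, Rgs14 and Arrb1 all dropped out, as each has a peak below it. Grk4 (morphine only) and Adcy9 (control only) were counted there instead. The causes of these changes were not tested. Depth limits the RGS and cyclase genes with few reads, and 2 libraries per condition limit every test.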
